A study of Homo sapiens with 17 samples.

Results

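The genes described here are 10 of the 26457 genes in the deposited expression table: the type II keratin genes KRT7, KRT8, KRT80, KRT81 and KRT86, the type I keratin genes KRT18, KRT19, KRT23 and KRT17, and the keratin-associated protein gene KRTAP2-3. They were chosen by name, from the gene symbols of the table, with their expression values in these same 8 libraries already known. Their levels and fold changes are therefore given as a description, and the same holds for the counts of members that reach the thresholds applied to all genes, from which nothing is read.

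The libraries come from the colon cancer line SW480, whose p53 is mutant (mutp53). Control cells expressed an inducible short hairpin RNA (shRNA) against LacZ and mutp53-depleted cells an inducible shRNA against p53, and the shRNA of each line was induced with doxycycline at 1 µg per ml. Cells of each line were harvested before (0 h) or after 16 h of TNF-α at 12.5 ng per ml, and each of the 4 groups has 2 biological replicates, A and B, sequenced as strand-specific mRNA libraries. Each comparison of mutp53-depleted with control cells is a comparison of 2 stably modified lines, so that an effect of the shRNA and a difference between the lines cannot be told apart, and whether the lines are clones is not given in the sources used here. Between 6108488 and 13809578 reads per library fell on the exons of the listed genes, and the values used here, called normalized reads, are those reads scaled to the same total in every library. In the 8 libraries, 1 read equals between 0.67 and 1.51 normalized reads.

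Keratins are the intermediate filament proteins of epithelial cells, and their filaments form from obligate heterodimers of a type I and a type II keratin. In humans the type II genes form a cluster on chromosome 12 and the type I genes a cluster on chromosome 17, except for KRT18, a type I gene that lies beside KRT8 in the chromosome 12 cluster. KRT8 and KRT18 are the main pair of simple epithelia such as the intestinal lining, whereas the hair keratins and the keratin-associated proteins (KRTAPs), which cross-link hair keratin filaments, are known from the hair shaft.

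All log2 fold changes were taken from log2(normalized reads + 1) in a limma model of the 4 group means, which brings those of weakly expressed genes closer to 0. A call needs a fold change of at least 2 and an adjusted p under 0.05 (Benjamini-Hochberg, 14800 genes tested). For the interaction, the difference between the lines in the TNF-α response, a call needs the adjusted p alone.

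KRT8, the type II partner of simple epithelia, had 27733 and 25616 normalized reads in replicates A and B of control cells at 0 h, and 21533 and 21155 after 16 h of TNF-α. In the mutp53-depleted line it had 21362 and 21633 at 0 h and 15437 and 16178 at 16 h. The mutp53-depleted libraries were below the control libraries of the same time, the TNF-α libraries were below the 0 h libraries of the same line, and the lowest values were those of mutp53-depleted cells given TNF-α. The log2 fold change with depletion was −0.31 (standard error 0.08) at 0 h and −0.43 at 16 h, and that with TNF-α was −0.32 in the control line and −0.44 in mutp53-depleted cells.

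KRT18, the type I partner of KRT8, had 27594 and 25847 normalized reads in the control line at 0 h and 20096 and 21425 at 16 h. In the mutp53-depleted line it had 18744 and 18378 at 0 h and 14248 and 14479 at 16 h. KRT18 followed the same order of groups as KRT8 except that mutp53-depleted cells at 0 h were below control cells at 16 h, and no pair of groups overlapped. Its log2 fold changes were −0.53 at each time with depletion, −0.36 with TNF-α in control cells and −0.37 with TNF-α in mutp53-depleted cells (standard error 0.08 for each). Divided by length, KRT8 stood at between 0.672 and 0.802 of KRT18 in the 8 libraries. The listed spans of KRT8 (chromosome 12, 53290971 to 53343650, minus strand) and KRT18 (53342843 to 53346685, plus strand; coordinates of hg19, the build in the table's header) share 808 bases, and the reads were counted by strand. KRT8, KRT18 and KRT19 have many processed pseudogenes, and how reads with several matches were treated is not given in the sources used here, so that their values are uncertain to that extent.

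KRT7, a type II keratin of simple and ductal epithelia, had only 9.43 and 13.6 normalized reads in the control line at 0 h and 88.0 and 83.9 after TNF-α. In the mutp53-depleted line it had 34.2 and 43.9 at 0 h and 77.1 and 88.9 at 16 h. Control cells at 0 h were lower than all other groups, and the control and mutp53-depleted libraries overlapped at 16 h. The mean was 3.38-fold higher in mutp53-depleted than in the control line at 0 h (log2 fold change 1.69, standard error 0.26), whereas at 16 h the log2 fold change was −0.05 (standard error 0.26). The mean was 7.46-fold higher with TNF-α in control cells and 2.13-fold higher in mutp53-depleted cells, with log2 fold changes of 2.82 and 1.08. With 22 reads in the control libraries at 0 h and 150 at 16 h, the 95% exact binomial interval of the first of these ratios, computed on summed reads, ran from 5.09 to 13.2. This interval covers counting error only. Over between 12821 and 13201 genes, the 2 libraries of a group differed by more than that on average, with a chi-square per gene of between 2.14 and 4.1. These averages are not values of KRT7 itself.

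KRT80, a type II keratin that lies at the end of the cluster, had 949 and 868 normalized reads in the control line at 0 h and 803 and 664 at 16 h. In the mutp53-depleted line it had 1870.3 and 1822 at 0 h and 1282 and 1388 at 16 h. All 4 mutp53-depleted libraries were above all 4 control libraries, and within each line the TNF-α libraries were below the 0 h libraries. The log2 fold change with depletion was 1.02 (standard error 0.09) at 0 h and 0.87 at 16 h, and that with TNF-α was −0.31 in the control line and −0.47 in mutp53-depleted cells. At 0 h the value lies just above the fold change of 2 that a call needs, and it was 0.96 without replicate B of control cells at 0 h.

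KRT81 and KRT86 are type II hair keratins that lie side by side on chromosome 12 and are close to each other and to KRT83 in sequence, so that reads between them could be misassigned. KRT81 had 169 and 133 normalized reads in the control line at 0 h, 184 and 215 at 16 h, 699 and 734 in the mutp53-depleted line at 0 h and 636 and 622 at 16 h. It was higher in all 4 mutp53-depleted libraries than in any control library, 4.74-fold at 0 h and 3.16-fold at 16 h by the group means, with log2 fold changes of 2.25 and 1.66 (standard error 0.12 for each). Its change with TNF-α was 0.40 on the log2 scale in control and −0.19 in mutp53-depleted cells. KRT86 had 29.0 and 36.4 normalized reads in the control line at 0 h, 25.1 and 22.8 at 16 h, 51.6 and 34.3 in the mutp53-depleted line at 0 h and 27.7 and 28.4 at 16 h. Its groups overlapped at 0 h, and the log2 fold change with depletion was 0.36 at 0 h and 0.22 at 16 h (standard error 0.29 for each), turning to −0.11 and −0.16 when the median change of the 50 neighbouring genes was removed. KRT83 had between 0 and 4.69 normalized reads.

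**Figure D1:**
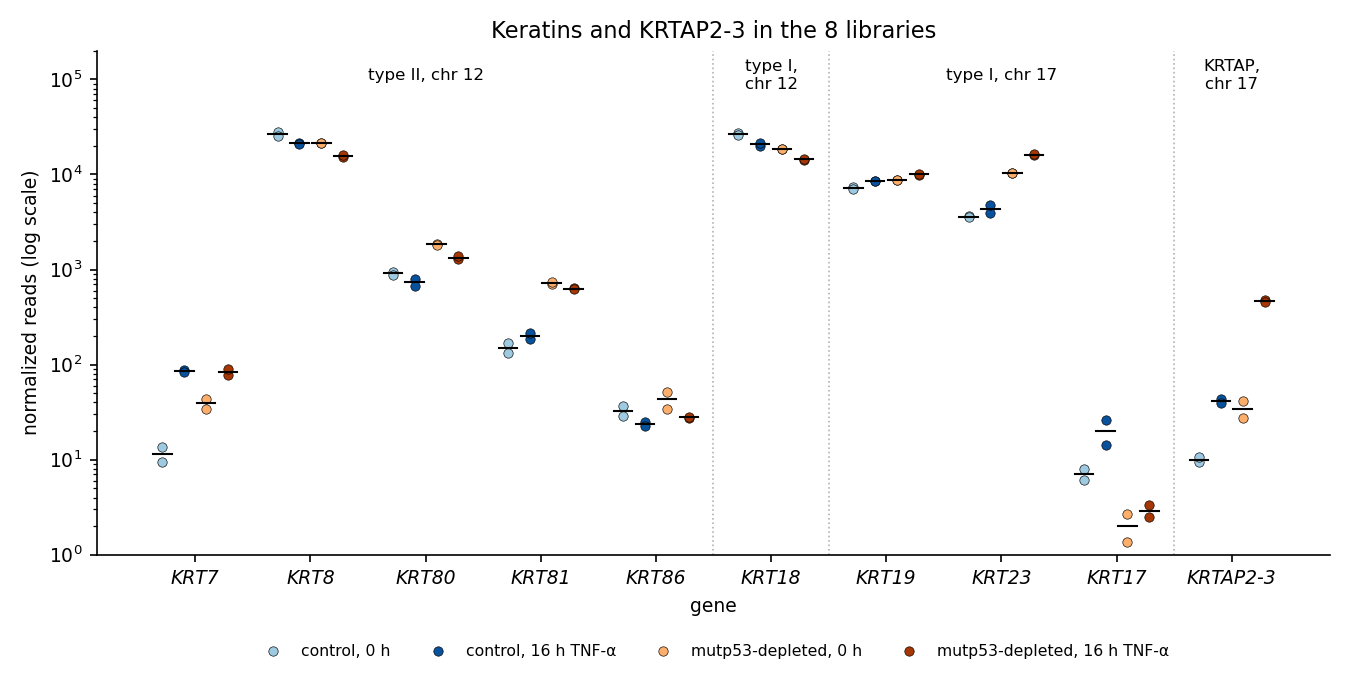
Normalized reads (log axis) of the 10 genes in the 8 libraries, with each point a library and each line the mean of a group of 2 replicates. KRT8 and KRT18 were lowest in mutp53-depleted cells after TNF-α, at 15437 and 16178 and at 14248 and 14479, and KRTAP2-3 was highest there, at 475 and 457.

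KRT19, the smallest of the keratins and a type I partner of KRT8 in simple epithelia, had 7394 and 7114 normalized reads in the control line at 0 h, 8437 and 8465 at 16 h, 8647 and 8716 in the mutp53-depleted line at 0 h and 9957 and 10221 at 16 h. These groups did not overlap, and their order was the reverse of that of KRT18. The log2 fold change of KRT19 with depletion was 0.26 at 0 h and at 16 h (standard error 0.07), and it turned to −0.20 at 0 h and −0.07 at 16 h when the median change of the 50 neighbouring genes was removed. With TNF-α it was 0.22 in each line.

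KRT23, a type I keratin, had 3613 and 3595 normalized reads in the control line at 0 h and 3950.1 and 4733 at 16 h. In the mutp53-depleted line it had 10439 and 10356 at 0 h and 16015 and 16217 at 16 h, which made it the member with the most normalized reads in replicate A and in replicate B of that group. The mean was 2.88-fold higher in the mutp53-depleted line at 0 h and 3.71-fold higher at 16 h, with log2 fold changes of 1.53 and 1.90 (standard error 0.08 for each). With TNF-α the log2 fold change of KRT23 was 0.26 in the control line and 0.63 in mutp53-depleted cells.

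KRT17, a type I keratin of stressed and wounded epidermis, was the weakest of the 10 genes, with 7.98 and 6.06 normalized reads in the control line at 0 h, 26.1 and 14.2 at 16 h, 2.68 and 1.37 in the mutp53-depleted line at 0 h and 3.35 and 2.47 at 16 h. The mutp53-depleted libraries held only 4 and 1 reads at 0 h and 4 and 2 reads at 16 h, against 11 and 4 and then 27 and 10 in control cells. Every mutp53-depleted library was below every control library. The log2 fold change with depletion was −1.43 at 0 h and −2.39 at 16 h (standard error 0.55 for each), and on summed reads the ratio was 0.306 (95% exact binomial interval 0.0869 to 0.885) at 0 h and 0.141 (0.0485 to 0.336) at 16 h. As for KRT7, these intervals leave out the spread between replicates. With TNF-α the log2 fold change was 1.35 in the control line and 0.40 in the mutp53-depleted line, where the groups overlapped. KRT17 is close in sequence to KRT14 and KRT16, of which KRT14 was listed at 0 in all 8 libraries and KRT16 at between 0 and 7.11 normalized reads.

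KRTAP2-3, which encodes a hair keratin-associated protein, lies among the type I keratin genes of chromosome 17 (hg19, 39215493 to 39216344). It had 9.43 and 10.6 normalized reads in the control line at 0 h and 43.5 and 39.8 at 16 h, and 27.5 and 41.1 in the mutp53-depleted line at 0 h and 475 and 457 at 16 h. The libraries of mutp53-depleted cells given TNF-α were thus more than 10 times above all 6 other libraries, while control cells with TNF-α and mutp53-depleted cells without it overlapped. The mean was 4.16-fold higher with TNF-α in control cells and 13.6-fold higher in mutp53-depleted cells, with log2 fold changes of 1.95 and 3.75 (standard error 0.24 for each). With depletion it was 3.42-fold higher at 0 h and 11.2-fold higher at 16 h, with log2 fold changes of 1.66 and 3.45. The near-identical gene KRTAP2-4 was listed at 0 in all libraries, and a read of KRTAP2-3 could have come from such a copy.

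Of 93 KRTAP genes in the table, 16 had a read in any library and 2 passed the filter of a mean of at least 2.5 normalized reads, KRTAP2-3 and KRTAP3-1. KRTAP3-1, from the same cluster, had 7.26 and 1.51 normalized reads in the control line at 0 h, 22.2 and 21.3 at 16 h, 35.5 and 19.2 in the mutp53-depleted line at 0 h and 74.6 and 88.9 at 16 h. It was highest in the same group as KRTAP2-3. The limma log2 fold change of KRTAP3-1 with depletion was 2.58 at 0 h (standard error 0.45, adjusted p = 0.00011) and 1.86 at 16 h (adjusted p = 0.0022). With TNF-α it was 2.32 in the control line (limma adjusted p = 0.00075) and 1.60 in the mutp53-depleted line (adjusted p = 0.013). The limma interaction of −0.72 (standard error 0.64) was not called (adjusted p = 0.7), and no difference in TNF-α response between the lines is read from it. Of the control libraries at 0 h, replicate A held 10 reads of KRTAP3-1 and replicate B 1, so that these values rest on few reads. KRTAP1-5, which did not pass the filter, had 6 reads in each mutp53-depleted library at 16 h and at most 1 read in any other library.

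Promoter sequences are shown for these 3 KRTAP genes because their highest values fell in the same group. They are the 60 bases before the RefSeq start site, from the minus strand of GRCh38.p14, at chr17:41060115-41060174 for KRTAP2-3, chr17:41009129-41009188 for KRTAP3-1 and chr17:41027209-41027268 for KRTAP1-5. Capitals mark TATATAA (a form of the TATA box), which was picked after the promoters were read.
KRTAP2-3: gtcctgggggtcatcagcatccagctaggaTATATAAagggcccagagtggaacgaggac
KRTAP3-1: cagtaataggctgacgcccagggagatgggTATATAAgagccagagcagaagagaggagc
KRTAP1-5: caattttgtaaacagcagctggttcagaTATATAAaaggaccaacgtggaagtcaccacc
The match begins 30 bases before the start site in KRTAP2-3 and KRTAP3-1 and 32 bases before it in KRTAP1-5. TATATAA in this orientation occurs in the last 60 bases of 251 of 35116 RefSeq promoters (0.715%) and in 19 of 79 promoters of KRTAP genes (24.1%). Most KRTAP genes in the expression table had no read. Within 250 bases, on both strands, neither the AP-1 motif TGANTCA, which 6.57% of all promoters hold, nor the NF-κB consensus (kappaB), which 9.96% hold, was found in these 3 promoters or in that of KRT8. Of the 10 genes, KRT8 and KRTAP2-3 had a promoter sequence in the table used. That of KRT8 (GRCh38.p14, chr12:52926470-52926529) may belong to another start site than that of the KRT8 transcript listed with the reads. A match is a description of the sequence and was not related to binding.

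**Figure D2:**
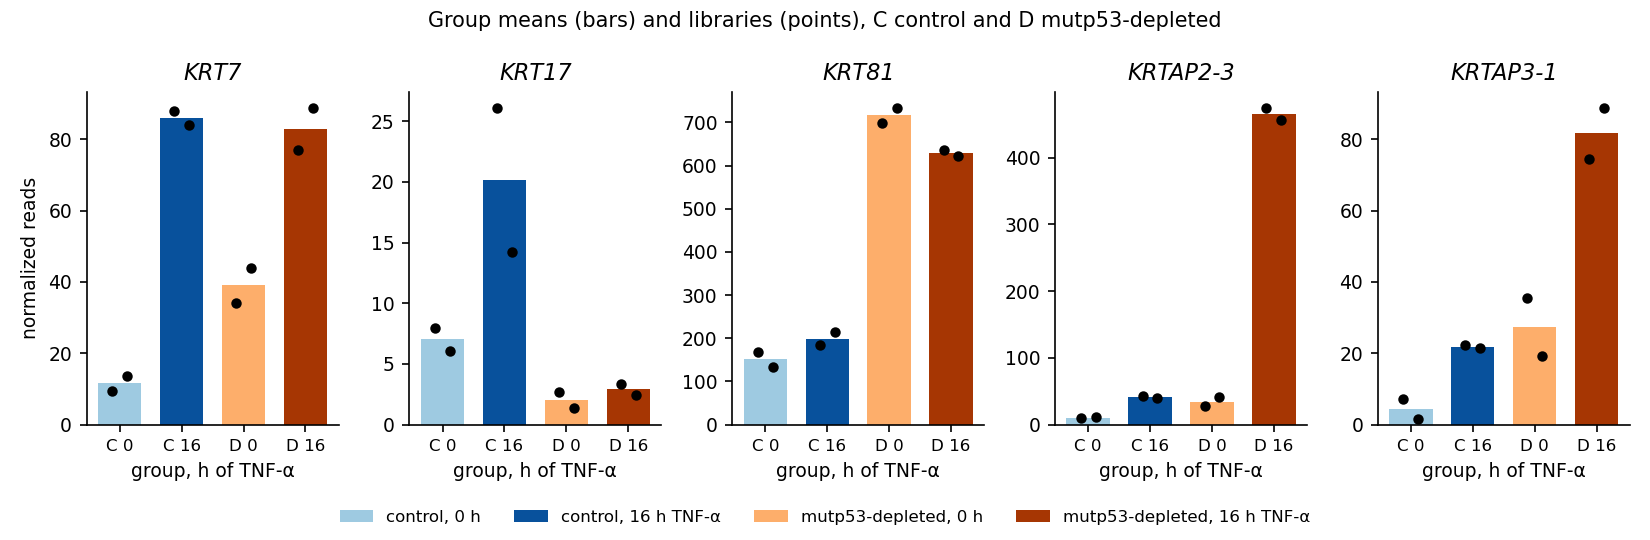
Normalized reads of KRT7, KRT17, KRT81, KRTAP2-3 and KRTAP3-1 in the 4 groups (C, control; D, mutp53-depleted; 0 or 16 h of TNF-α), with bars for group means and points for the 2 libraries. KRT7 reached like values with TNF-α in each line (88.0 and 83.9, 77.1 and 88.9), KRT17 was low in mutp53-depleted cells, KRT81 was high in them at each time, and KRTAP2-3 and KRTAP3-1 were highest in mutp53-depleted cells after TNF-α.

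Levels of different genes were compared per kb of listed length. In control cells at 0 h the order was KRT18 (18327 ± 848 normalized reads per kb, mean ± SD, n = 2), KRT8 (12459 ± 699), KRT19 (4958 ± 135), KRT23 (1639 ± 5.93), KRT80 (234 ± 14.7), KRT81 (79.6 ± 13.3), KRT86 (15.7 ± 2.49), KRTAP2-3 (11.8 ± 0.975), KRT7 (6.82 ± 1.76) and KRT17 (4.49 ± 0.868). Of the neighbours in this order, KRT7 and KRT17 did not differ beyond their SDs. Of the 14800 genes tested, KRT18 ranked 4 and KRT8 ranked 11 by this measure. In mutp53-depleted cells at 16 h, KRT18 (9851 ± 112) and KRT8 (7383 ± 245) were still the highest and ranked 26 and 44, followed by KRT23 (7329 ± 65), which did not differ from KRT8 beyond their SDs, and KRT19 (6896 ± 127). KRTAP2-3 came next at 548 ± 14.9, above KRT80 (344 ± 19.4) and KRT81 (331 ± 5.34), which did not differ beyond their SDs. KRT23 moved from rank 308 in the control line at 0 h to rank 46 in that group, and KRTAP2-3 from rank 11954 to rank 1414.

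The type II members on chromosome 12 were then compared with the type I members on chromosome 17. The 5 type II members together had 12795 ± 723 normalized reads per kb in the control line at 0 h, 10325 ± 141 in the control line at 16 h, 10937 ± 91.6 in the mutp53-depleted line at 0 h and 8121 ± 264 at 16 h, of which KRT8 made up between 90.9% and 97.4% in each library. The 3 chromosome 17 type I members (KRT17, KRT19 and KRT23) had 6602 ± 142, 7764 ± 260.1, 10664 ± 6.29 and 14227 ± 192 in the same order of groups. The type II sum was thus lowest and the chromosome 17 sum highest in mutp53-depleted cells given TNF-α. The log2 ratio of the type II to the chromosome 17 sum was 0.99 and 0.92 in the control line at 0 h, 0.46 and 0.36 in the control line at 16 h, 0.03 and 0.04 in the mutp53-depleted line at 0 h and −0.83 and −0.79 in the mutp53-depleted line at 16 h. No pair of groups overlapped in this ratio, but its order rests on KRT8, since without KRT8 it was −4.30 and −4.45 in the control line at 0 h and 16 h and −3.57 and −4.27 in the mutp53-depleted line, so that depletion went with a higher ratio at each time.

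With KRT18 counted among the type I members, the sum of type I changed less, from 24929 ± 990 normalized reads per kb in the control line at 0 h to 22003 ± 905 at 16 h, 23394 ± 171 in the mutp53-depleted line at 0 h and 24078 ± 304 at 16 h. Within this sum KRT18 gave 73.8% and 73.2% in the control libraries at 0 h, 64.5% and 64.9% at 16 h, 54.7% and 54.2% in the mutp53-depleted libraries at 0 h and 41.0% and 40.9% at 16 h. KRT23 gave 6.41% and 6.75% of it in the control line at 0 h and 30.5% and 30.4% in the mutp53-depleted line at 16 h, and KRT19 between 19.7% and 28.8%. The log2 ratio of type II to all type I members was −0.95 and −0.98 in the control line at 0 h, −1.03 and −1.15 at 16 h, −1.11 and −1.08 in the mutp53-depleted line at 0 h and −1.59 and −1.55 at 16 h. The last group was below the others, and control cells at 16 h overlapped mutp53-depleted cells at 0 h.

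The members leave out the type II keratin with the most reads, KRT5, the usual partner of KRT14 in basal keratinocytes. KRT5 had 35849 and 33070 normalized reads in the control line at 0 h, 31154 and 31504 at 16 h, 26615 and 26435 in the mutp53-depleted line at 0 h and 18663 and 18246 at 16 h, and made up between 48.6% and 57.1% of all type II keratin reads per kb. Its limma log2 fold change was −0.38 (standard error 0.08, adjusted p = 0.00045) with depletion at 0 h and −0.76 (standard error 0.08, adjusted p = 1.6e-07) at 16 h. Over all 26 type II and 28 type I keratin genes in the table, the log2 ratio of summed reads per kb was 0.17 and 0.13 in the control line at 0 h, 0.15 and 0.07 at 16 h, −0.09 and −0.07 in the mutp53-depleted line at 0 h and −0.58 and −0.59 at 16 h. As with the members when KRT8 is counted, the ratio was lowest in mutp53-depleted cells after TNF-α. The 10 members together made up between 0.596% and 0.729% of the normalized reads of a library.

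**Figure D3:**
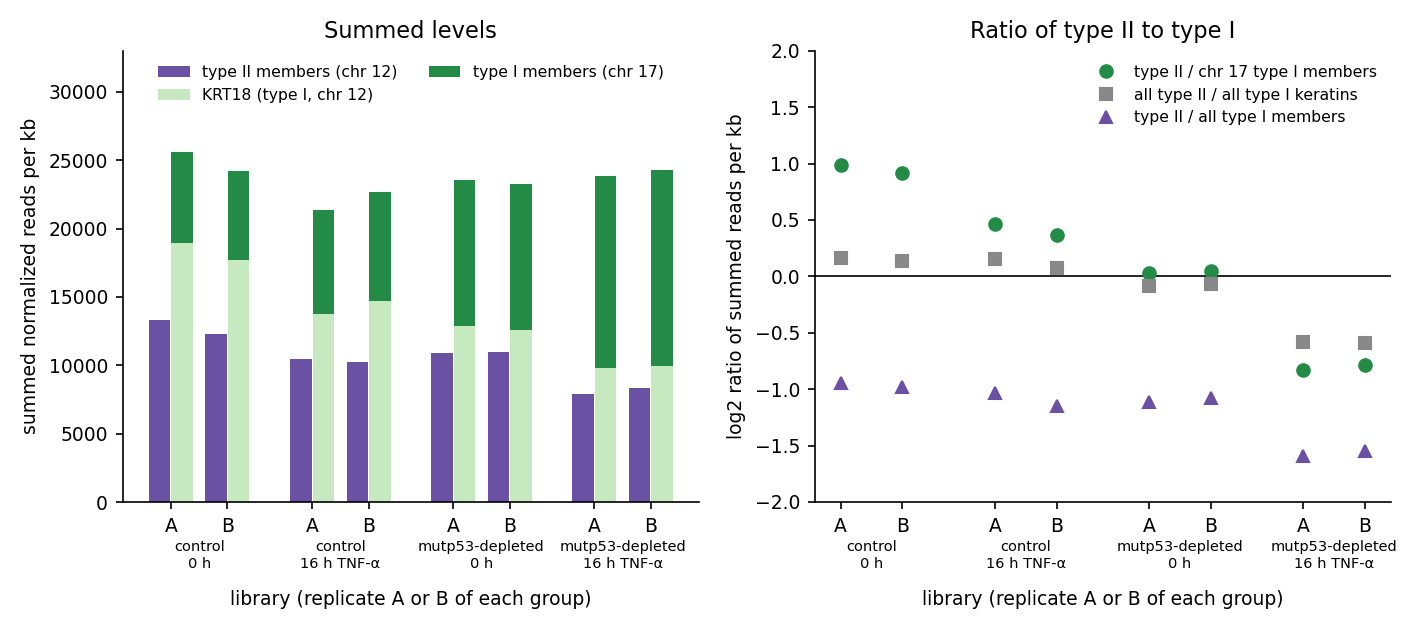
Left, summed normalized reads per kb of the type II members and of the type I members (KRT18 and the chromosome 17 genes stacked) in each library; right, log2 ratio of type II to type I sums per library, for the chromosome 17 type I members, all type I members, and all keratin genes. The ratio to the chromosome 17 members went from 0.99 and 0.92 in the control line at 0 h to −0.83 and −0.79 in the mutp53-depleted line at 16 h.

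With depletion at 0 h, 5 of the 10 members were called higher (KRT7, KRT23, KRT80, KRT81 and KRTAP2-3), where 5.89% of all genes tested were called higher, and 1 was called lower (KRT17), where 9.55% of all genes were called lower. The call of KRT80 was lost without replicate B of control cells at 0 h, and that of KRT17 without either control library at 0 h and without replicate B of the mutp53-depleted line at 0 h, with log2 fold changes between −1.60 and −1.11. Neither of these 2 calls was made by edgeR or DESeq2, where KRT80 had log2 fold changes of 0.99 and 1.00 and KRT17 of −1.68 and −1.74, and that of KRT17 was also lost with a pseudocount of 5 (−0.78). With depletion at 16 h, 3 members were called higher (KRT23, KRT81 and KRTAP2-3) against 5.03% of all genes, and KRT17 was called lower against 10.2% of all genes. KRT17 reaches the filter of 2.5 through its reads in control cells, with group means of 7.02 at 0 h and 20.2 at 16 h. In the mutp53-depleted line they were 2.025 and 2.91, so that its calls lower are a description only. The median log2 fold change of the members was 0.69 at 0 h and 0.24 at 16 h, beside 0.03 and −0.01 over all genes tested. Since the members were chosen with these values known, nothing is read from the counts.

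With TNF-α, 2 members (KRT7 and KRTAP2-3) were called higher in control cells, where 2.97% of all genes were called higher and 4.27% lower, and the same 2 were called higher in mutp53-depleted cells, where 1.86% of all genes were called higher and 4.5% lower. KRT17 was called higher in control cells as well by edgeR (1.55) and with a pseudocount of 5 (1.03). No member was called lower with TNF-α in limma, though KRT8, KRT18, KRT80 and KRT86 had negative log2 fold changes in each line, between −0.57 and −0.31. In mutp53-depleted cells the call of KRT7 was lost without replicate A at 0 h (log2 fold change 0.90) and without replicate B at 16 h (0.98). The median over the members was 0.24 in the control line and 0.02 in mutp53-depleted cells, beside −0.05 and −0.06 over all genes. Of all genes, 2.86% passed the limma interaction contrast, the difference between the lines in the TNF-α response, at an adjusted p under 0.05, and 2 members were among them, from which nothing is read for the reason given above. The interaction was −1.74 (standard error 0.37) on the log2 scale for KRT7, whose response was smaller in mutp53-depleted cells and whose call was lost without replicate B of that line at 0 h (−1.56), and 1.80 (standard error 0.34) for KRTAP2-3, whose response was larger there. The comparisons share groups of libraries, so that they are not independent of each other.

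**Figure D4:**
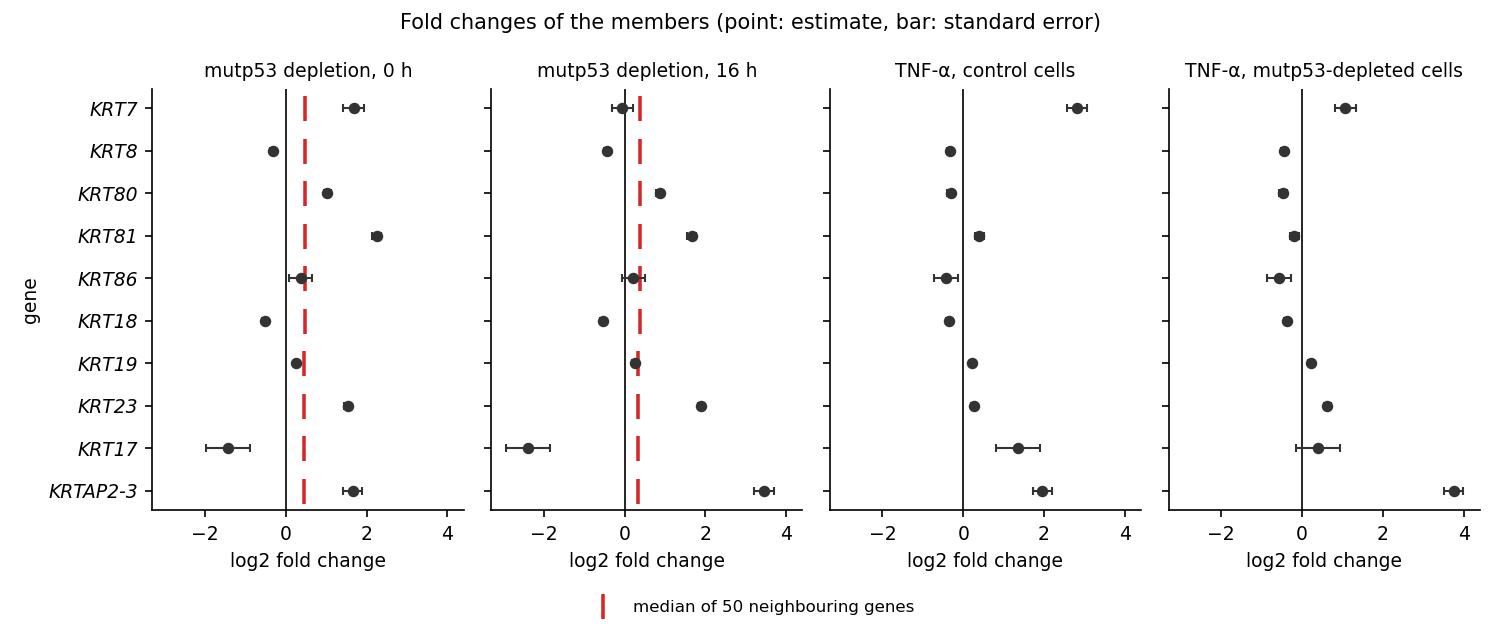
Log2 fold changes of the 10 genes (points, with bars for the standard error) with mutp53 depletion at 0 h and at 16 h and with TNF-α in control and in mutp53-depleted cells; red marks give, for depletion, the median of the 50 genes around each gene. KRTAP2-3 had the largest values, 3.45 with depletion at 16 h and 3.75 with TNF-α in mutp53-depleted cells.

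The chromosome regions that hold these genes were themselves higher in the mutp53-depleted line. Outside the keratin and KRTAP genes, the median log2 fold change with depletion was 0.57 at 0 h and 0.54 at 16 h over 796 genes of chromosome 12, and 0.26 and 0.25 over 920 genes of chromosome 17. The 50 tested genes around each chromosome 12 member had a median of 0.47 at 0 h and 0.38 at 16 h, and those around KRT19, KRT23 and KRTAP2-3 of 0.46 and 0.33. KRT8 and KRT18 were thus lower with depletion amid genes that were higher, and with the neighbours' median removed their log2 fold changes at 0 h were −0.78 and −0.99. After the same removal KRT80 stood at 0.56 at 0 h, KRT81 at 1.78, KRT7 at 1.22, KRT23 at 1.07 and KRTAP2-3 at 1.19. With TNF-α the medians of these chromosomes lay between −0.13 and −0.04. The part of the regional shift in the members' values was not tested.

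Of the 46 other keratin genes in the table, 13 had no read and 14 were tested. With depletion at 0 h, limma called 4 of the 14 higher (KRT15, KRT31, KRT34 and KRT38, against 5.89% of all genes) and 1 lower (KRT75, against 9.55%), and at 16 h it called 4 higher (KRT15, KRT31, KRT34 and KRT39, against 5.03%) and none lower. With a mean of at least 10, 2 calls were left at each time, without KRT31, KRT34 and KRT38, which pass the filter of 2.5 only through their reads in mutp53-depleted cells. Among the others KRT15, an epidermal stem cell keratin, went from 25.4 and 36.4 normalized reads in control to 103 and 89.1 in the mutp53-depleted line at 0 h (limma log2 fold change 1.62, standard error 0.23, adjusted p = 1.2e-05). The hair keratins KRT31, KRT34 and KRT38 had no more than 2 reads in each control library, and against a floor of 3 reads per library KRT34 was at least 2.72-fold higher with depletion at 0 h and at least 4.97-fold higher at 16 h. By the same floor KRT31 was at least 1.51-fold and 1.98-fold higher, and KRT38 was at least 5.23-fold higher at 0 h and not above the floor at 16 h.

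KRT10 and KRT13, type I genes of chromosome 17 with more reads than KRT15, were not called in any comparison. KRT10 had 258 and 218 normalized reads in the control line and 312 and 296 in the mutp53-depleted line at 0 h, and KRT13 had 413 and 367 and then 484 and 466. With TNF-α, limma called KRT71 and KRT74 lower in control cells (4.27% of all genes were called lower), and KRT6A and KRT75 higher (1.86%) and KRT71 and KRT74 lower (4.5%) in mutp53-depleted cells. KRT38 was called lower there too, but it passes the filter only through its 34 and 9 reads in that line at 0 h. KRT2 and KRT32 were called higher in control cells too, but they had no read there at 0 h and pass the filter only through their reads with TNF-α, at 12 and 4 and at 10 and 8 reads. KRT74, a hair root sheath keratin, went from 342 and 370 to 136 and 152 normalized reads with TNF-α in control cells (limma log2 fold change −1.30, standard error 0.16, adjusted p = 5.2e-06).

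**Figure D5:**
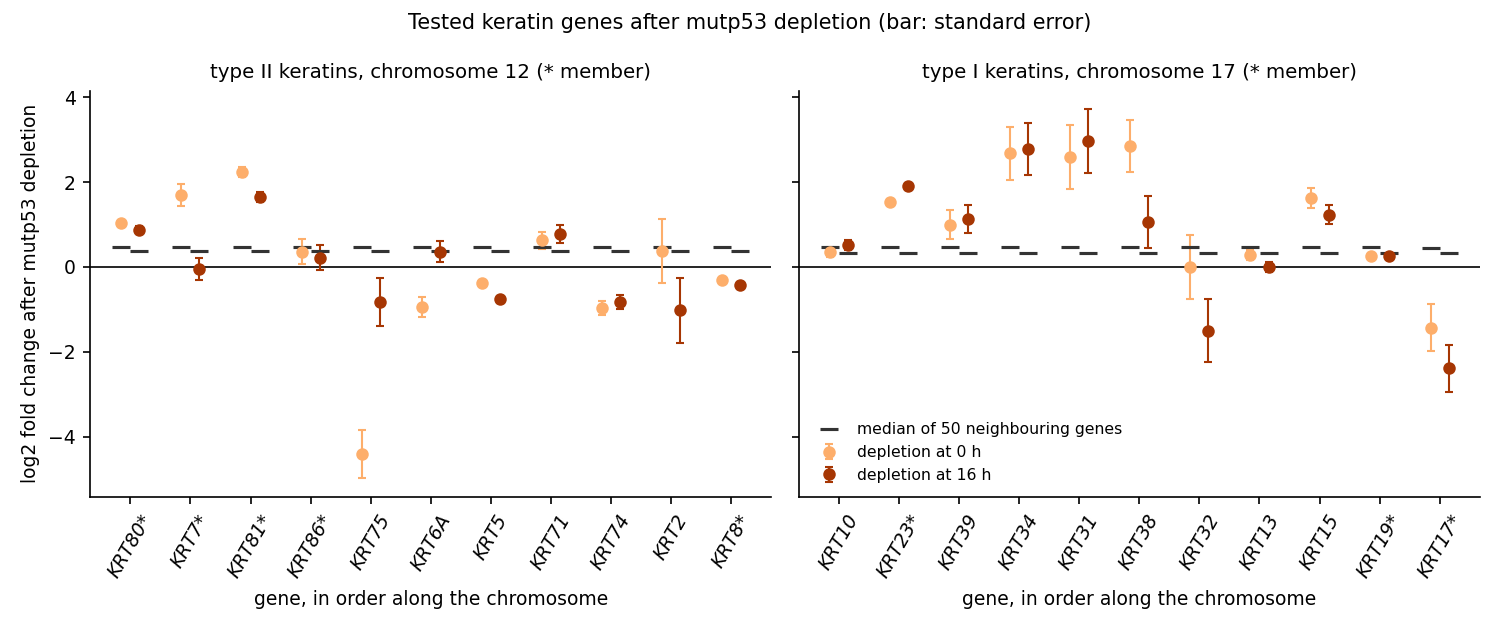
Log2 fold changes with mutp53 depletion at 0 h and 16 h (points, with bars for the standard error) of the 11 tested type II keratin genes of chromosome 12 and the 11 tested type I keratin genes of chromosome 17, in chromosome order, with the median of the 50 neighbouring genes as dashes. KRT75 had the lowest value, −4.40 at 0 h, where its mutp53-depleted libraries held 6 and 0 reads. KRT31, KRT34 and KRT38 had no more than 2 reads in each control library.

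Lists of related genes were taken by function, and with depletion at 0 h 5.89% of all genes were called higher and 9.55% lower. Of 10 tested genes for other intermediate filament proteins, limma then called 2 higher and 1 lower. Among them VIM, the mesenchymal filament vimentin, went from 5351 and 5274 to 10853 and 10829 normalized reads, and NES, which encodes nestin, from 2459 and 2572 to 663 and 572. The limma log2 fold change of VIM was 1.03 (standard error 0.07) at 0 h, just past the threshold, and 0.98 at 16 h, where it was not called. The 50 genes around VIM had a median of 0.43 at 0 h, and those around NES of −0.08. Of 12 tested genes of cytolinkers and the desmosomal plaque, which anchor keratin filaments, PKP2 was called higher and EPPK1 lower. PKP2, on chromosome 12, had a log2 fold change of 1.36 at 0 h amid neighbours with a median of 0.69. For EPPK1 these values were −1.50 and −0.56. Of 20 genes of the cornified envelope, 8 had no read and 5 were tested, of which SFN, KLK7 and TCHH were called lower at 0 h and TCHH at 16 h. Of 13 tested epithelial transcription factors, HOXC13, a regulator of hair keratin genes on chromosome 12, was called higher and HNF4A and EHF lower at 0 h, and HNF4A, ELF3, EHF and DLX3 were called lower at 16 h, where 10.2% of all genes were. The interaction was called for 4 of these 13 (EHF, KLF5, HNF4A and ELF3), where 2.86% of all genes were called. No test was made of these lists as wholes.

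Markers of cell types were set beside the members. Of all genes tested, limma called 5.89% higher and 9.55% lower with depletion at 0 h, and 5.03% higher and 10.2% lower at 16 h. With TNF-α it called 4.27% lower in control cells and 4.5% lower in mutp53-depleted cells, and for the interaction 2.86%. Of 6 markers of colon epithelium, EPCAM was the most abundant, and their summed level was 7992 and 7602 normalized reads in the control line at 0 h, 6229 and 5336 at 16 h, 3728 and 3728 in the mutp53-depleted line at 0 h and 3087 and 3020 at 16 h. The sum was lowest in mutp53-depleted cells after TNF-α, as KRT8 and KRT18 were, but its genes differed. EPCAM and VIL1 were called lower with depletion at each time by limma and CDH1 and CDX2 were not, and VIL1 changed most, from 545 and 480 to 8.71 and 12.3 normalized reads at 0 h. With TNF-α, CDH1 and VIL1 were called lower in each line and CDX2 in control cells, whereas EPCAM was not called and had 2404 and 2367 at 0 h and 2511 and 2381 at 16 h in the mutp53-depleted line. All libraries were made from cultured SW480 cells and not from tissue, so that the marker sums in this paragraph describe expression in that line. A link of the colon epithelium markers with the levels of KRT8 and KRT18 was not tested. KRT20 and LGR5 of the colon epithelium list had fewer than 10 normalized reads in every library. Of 4 markers of basal keratinocytes, KRT5 was the only one with a read, and KRT14, TP63 and DSG3 were listed at 0 in all libraries. Of 4 markers of hair follicle, HOXC13 was the most abundant, with 29.0 and 19.7 normalized reads in control cells and 73.7 and 85.0 in the mutp53-depleted line at 0 h, KRT85 had at most 5.48, and KRT35 and FOXN1 were listed at 0 in all libraries. The summed level of this list was 30.5 and 19.7 in the control line at 0 h, 30.0 and 28.5 at 16 h, 75.0 and 90.5 in the mutp53-depleted line at 0 h and 52.8 and 66.7 at 16 h, so that it was higher with KRT81 in mutp53-depleted cells, and its part in that was not tested. The sum is mostly HOXC13, which limma called higher with depletion at 0 h (log2 fold change 1.685) and not at 16 h (0.98). HOXC13 and KRT81 both lie on chromosome 12, where the median with depletion was 0.57 at 0 h and 0.54 at 16 h. Of 6 fibroblast markers, COL3A1 and DCN were listed at 0 and COL1A1 was the most abundant, with a summed level of 38.5 and 39.4 in the control line at 0 h, 31.9 and 28.5 at 16 h, 158 and 177 in the mutp53-depleted line at 0 h and 56.2 and 59.2 at 16 h. Of this list COL1A1 and PDGFRB were tested, and limma called them higher with depletion at 0 h (log2 fold changes 1.51 and 3.53) and not at 16 h. PDGFRB was called lower with TNF-α in mutp53-depleted cells, and its interaction (−2.81) was called. The 4 leukocyte markers, led by CD14 and with PTPRC listed at 0, summed to 37.7 and 21.2 in the control line at 0 h, 13.5 and 9.96 at 16 h, 14.7 and 15.1 in the mutp53-depleted line at 0 h and 8.39 and 4.94 at 16 h. The 4 endothelial markers, led by VWF and with KDR listed at 0, summed to 7.26 and 6.06, 6.77 and 5.69, 28.8 and 21.9, and 17.6 and 28.4 in the same order. Of these only VWF was tested, which limma called higher with depletion at each time, and the others had at most 6 reads in a library. In these bulk libraries, fewer cells with a transcript and less of it per cell cannot be told apart.

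The genes most like 3 of the members over the 8 libraries were found by Pearson's r of log2(normalized reads + 1), which here mainly reflects the pattern of the 4 group means. For KRT7 they were SAMD4A, VSTM1, APEX2, MAFF and MAP4K4, with r between 0.989 and 0.994. For KRT8 they were CRABP2, LZTS1, TEAD2, DPYSL2 and IFITM2, with r between 0.993 and 0.995, while r was 0.969 with KRT18. For KRTAP2-3 they were CLUH, METTL1, CHST2, GRPEL1 and NOP58, with r between 0.981 and 0.990. CLUH, for example, had 3556 and 3631 normalized reads in the control line at 0 h, 4464 and 4338 at 16 h, 4299 and 4382 in the mutp53-depleted line at 0 h and 5666 and 5661 at 16 h. Among the members, KRTAP2-3 ran with KRT19 (r = 0.955) and against KRT8 (r = −0.983).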

How the data were processed

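Single-end 50-base reads of strand-specific poly(A) libraries were mapped with STAR and counted on exons with HOMER by the authors, who deposited signal values that are reads multiplied by a factor per library. The table's header and coordinates give hg19, whereas the study's methods name hg38. Division of each value by that of 1 read gave back the reads, and 100% came out whole (tolerance 0.1). Deposited columns of fold changes and p-values were not used. The members and lists were chosen with earlier results of these data known.

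Genes whose mean was 2.5 or more were compared on log2(value + 1) by limma 3.58.1 (R 4.3.3), through lmFit, contrasts.fit and eBayes with a trend, and adjusted by Benjamini-Hochberg. The procedure was tested on simulated data, and no result of that test is used here. Genes to be named were the members, other KRT genes with a mean of at least 10 or a call, KRTAP genes past the filter, called genes of the lists (at most 4 per contrast) and the 5 genes most like KRT7, KRT8 and KRTAP2-3. Some called genes of the lists are not used. Cell-type markers were listed beforehand. KRT16, KRT83, KRTAP1-5 and KRTAP2-4 were named in addition, after their values were seen. Promoters came from RefSeq (GRCh38.p14). Alternatives were median-ratio scaling, no filter, a filter at a mean of 10, pseudocounts 0.1 and 5, a replicate block, edgeR 4.0.16 (quasi-likelihood) and DESeq2 1.42.0 on the recovered reads, removal of the median change of the 50 neighbouring genes, leaving out each library, and, for the type II to type I ratio, no division by length and no KRT8 and KRT18. Other software was matplotlib 3.10.9, scipy 1.17.1, pandas 2.3.3 and numpy 2.4.6 under Python 3.11.15.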

Additional observations from a re-analysis of the deposited data

Results flagged for a closer look

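The limma interaction contrast, the difference between the lines in the TNF-α response, was called for 2.86% of all genes. For the members KRT7 and KRTAP2-3, chosen with their values known, its value is a description. The log2 fold change of KRT7 was smaller in mutp53-depleted cells, with an interaction of −1.74, and its call was lost without replicate B of mutp53-depleted cells at 0 h (−1.56). That of KRTAP2-3 was larger there, with an interaction of 1.80. KRT75, at 50.8 and 42.4 normalized reads in control and 4.02 and 0 in mutp53-depleted cells at 0 h, fell with TNF-α in control cells by 1.03 on the log2 scale, which was not called, and rose in mutp53-depleted cells, with an interaction of 3.58 (limma adjusted p = 0.019). The mutp53-depleted libraries at 0 h held 6 and 0 reads of KRT75, so that the size of this interaction is uncertain. KRT6A, at 68.2 and 59.1 in control and 32.2 and 32.9 in mutp53-depleted cells at 0 h, rose with TNF-α in mutp53-depleted cells to 66.2 and 90.1, with an interaction of 1.31 (limma adjusted p = 0.048). Leaving out any of the 8 libraries left at most 1 of the interactions of KRT75 and KRT6A called.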

How the results depend on the processing

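Of 845 member log2 fold changes recomputed (50 results under 17 alternatives), 799 kept their direction and their side of the threshold, 22 changed sign, 13 lost the call and 11 gained it. Many of these fold changes could not move. The replicate block, a change of filter and leaving out a library from outside the comparison leave the fold change as it was and can alter only the call. KRT17, with a mean under 10, had no value with the filter at a mean of 10. With the neighbouring genes removed, the log2 fold change of KRT19 with depletion was −0.20 at 0 h and −0.074 at 16 h, that of KRT86 −0.11 and −0.16, and the interactions of KRT18 and KRT19 were 0.084 and 0.13. With median-ratio scaling, edgeR and DESeq2 these 2 interactions, near 0 throughout, were 0.017, 0.018 and 0.017 for KRT18 and 0.019 each time for KRT19. Without 1 library, the log2 fold change of KRT7 with depletion at 16 h lay between −0.15 and 0.048, and the interactions between −0.053 and 0.041 for KRT18, −0.032 and 0.024 for KRT19 and −0.43 and 0.15 for KRT86.

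Members called without 1 library numbered 1 to 2 for TNF-α in mutp53-depleted cells and 1 to 3 for the interaction. With the replicate block the interaction called 4 members in place of 2 (KRT23 and KRT81 in addition), where KRT23 was also gained with edgeR (0.39), DESeq2 (0.39), neighbours removed (0.50) and without replicate B of control cells at 16 h (0.50), and KRT81 without replicate A of control cells at 0 h (−0.76) or 16 h (−0.70), and the block changed no other count except that of other keratins in the interaction, 3 in place of 2. Nothing in the sources used here pairs the libraries beyond their letters, every A library had more reads than every B library, and the differences B − A of pairs of groups correlated at between −0.05 and 0.15. Other keratins called with a mean of at least 10, where 9 were tested in place of 14, were 2 at 0 h and 2 at 16 h with depletion and 2 with TNF-α in control cells. They were 8 with no filter for depletion at 16 h, where 33 were tested. Without 1 library they were 3 to 6 for TNF-α in mutp53-depleted cells and 0 to 1 for the interaction, which called 1 with DESeq2, 0 with no filter and 0 with a pseudocount of 0.1. The cause of these changes was not tested.

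Not divided by length, the log2 ratio of type II to type I members was −0.44 and −0.58 in control cells and −0.64 and −1.18 in mutp53-depleted cells at 0 h and 16 h. In the same order, without KRT18 and KRT8 it was −4.30, −4.45, −3.57 and −4.27, so that its order turned: control cells at 16 h were lowest and depletion went with a higher ratio at each time. Rescaling of libraries, which cannot change this ratio, was not run. Depth limits KRT17, KRT86, KRT7 and, outside mutp53-depleted cells with TNF-α, KRTAP2-3, which had under 110 reads per library.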
